A study of Mus musculus with 4 samples.

Results

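Bivalent bins are stretches of 5 kb in which both H3K4me3 and H3K27me3 were strong in fibroblasts cultured from mouse embryos (MEF). They were chosen on chromosomes 1 to 19 as bins with MEF H3K4me3 and MEF H3K27me3 both at 5-fold or more over the library's own mean and MEF H3K9me3 under 10-fold. The mean was taken over the 494868 bins with a read in any library, on chromosomes 1 to 19, X and Y. Of 465838 autosomal bins with a read, 1428 met this rule. Levels below are folds over that mean, for 5 kb bins on build mm8, unless a sub-bin is named. The levels of H3K4me3 and H3K27me3 in these bins, and the upper limit of MEF H3K9me3, were fixed by the choice and are given as a description.

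H3K4me3 is deposited at promoters by MLL-family methyltransferases and is found at active and at poised genes. H3K27me3 is deposited by Polycomb repressive complex 2 and is tied to silenced developmental genes. Regions that carry both are called bivalent. They are best known from embryonic stem cells, where they lie at CpG-rich promoters of developmental regulators, and many lose either mark as cells differentiate. H3K9me3 is the mark of constitutive heterochromatin and is usually kept apart from H3K4me3.

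The study sequenced chromatin immunoprecipitates, and 4 libraries are used here, each the sole library of its group. Secondary MEF, which supplied 1 H3K9me3 library, were taken at 13.5 days post coitum from chimeric embryos. The embryos had been made by injecting induced pluripotent stem cells that carry doxycycline-inducible Oct4, Klf4 and Sox2 and an Oct4-selectable cassette into BDF2 blastocysts, and puromycin at 2 µg/ml for 48 hours kept the fibroblasts of the injected line. The other 3 libraries, H3K4me3, H3K27me3 and H3K9me3, came from ordinary MEF, for which the labels give no strain, age or transgene. Both kinds of cell were grown with 10% serum, and whether doxycycline was given is not stated in the labels. With 1 library a group there is no replicate check, intervals cover counting error only, and every difference is between libraries. The labels place the 3 MEF libraries on 1 flow cell and the secondary MEF library on another.

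The libraries held 7986294 reads with a single location (secondary MEF H3K9me3), 12244976 (MEF H3K4me3), 9783343 (MEF H3K27me3) and 8912579 (MEF H3K9me3), or means of 16.1, 24.7, 19.8 and 18.0 reads in each bin, in that order. The bivalent bins took 3.23% of the H3K4me3 reads, 2.84% of the H3K27me3 reads, 0.902% of the secondary MEF H3K9me3 reads and 1.05% of the MEF H3K9me3 reads. In these bins 97.1% of the secondary MEF H3K9me3 reads were at distinct positions, as were 89.4% of the H3K4me3, 91.5% of the H3K27me3 and 97.3% of the MEF H3K9me3 reads. No gene annotation of build mm8 was used here, so bins are named by position and no gene or sequence is assigned to them.

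Most bivalent bins lay not far above the limits, and few reached 10-fold in both marks. H3K4me3 had a median of 9.01-fold, with the middle 50% of bins between 6.47-fold and 13.4-fold, and H3K27me3 a median of 8.32-fold, with the middle 50% between 6.42-fold and 11.9-fold. The smaller of the 2 folds had a median of 6.63, it was under 6 in 497 bins (34.8%), and both marks reached 10-fold in 169 bins (11.8%). By single marks, 3.21% of autosomal bins had H3K4me3 at 5-fold or more and 1.69% had H3K27me3 at 5-fold or more, while 0.307% met the whole rule. Over the bivalent bins the log2 folds of the 2 marks had a Pearson correlation of -0.19 and a Spearman correlation of -0.18 (n = 1428 bins of the same 2 libraries). A limit set on both marks bounds this value. The lowest H3K4me3 count was 124 reads and the lowest H3K27me3 count 99 reads.

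The limits cut through a continuous range. In 280 members the smaller fold was between 5 and 5.5, and in 330 further autosomal bins under the H3K9me3 limit it was between 4.5 and 5. The 5 members nearest the limit had 99 H3K27me3 reads each, or 5.01-fold, with H3K4me3 between 6.47-fold and 23.8-fold. The 5 nearest bins left out had 123 H3K4me3 reads each, or 4.97-fold, with H3K27me3 between 5.01-fold and 13.5-fold. Between the groups on either side of the limit, the median of MEF H3K9me3 was 2.998-fold inside and 2.83-fold outside, and that of secondary MEF H3K9me3 was 2.66-fold on both sides. The H3K9me3 limit removed 32 bins with both marks at 5-fold or more. All 32 had secondary MEF H3K9me3 of 10-fold or more as well, which the choice did not use. Their H3K9me3 median was 35.7-fold for secondary MEF and 37.5-fold for MEF. All 4 libraries were raised there, those of MEF by the limits that picked these bins. Among the members only 7 had MEF H3K9me3 of 8-fold or more and 4 had secondary MEF H3K9me3 of 10-fold or more.

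In the 10 bins that were strongest in both marks, both stood at 5-fold or more in 4 to 9 of the 10 sub-bins of 500 bp. Chromosome 3 from 89405001 to 89410000 led by the smaller fold, at 18.0-fold H3K4me3 (95% Poisson interval 16.4 to 19.8), 22.6-fold H3K27me3 (20.6 to 24.8), 3.47-fold secondary MEF H3K9me3 (2.62 to 4.51) and 6.55-fold MEF H3K9me3 (5.42 to 7.85). In this bin the 500 bp sub-bin with the most H3K4me3 reads began at 89408501 and the one with the most H3K27me3 reads began at 89406501, 2000 bp away. At the H3K4me3 summit H3K27me3 was 6.07-fold over the mean of a sub-bin, against 41.0-fold at its own summit. The next bin, chromosome 7 from 98710001 to 98715000, differed in layout: both summits were in the sub-bin from 98711001, with 47.7-fold H3K4me3 and 28.8-fold H3K27me3 there, and 9 of its 10 sub-bins had both marks at 5-fold or more. Chromosome 13 from 40740001 to 40745000 and chromosome 14 from 57025001 to 57030000 also shared 1 summit and had both marks at 5-fold or more in 9 sub-bins. Chromosome 11 from 118870001 to 118875000 was split, with the summits 2000 bp apart, H3K27me3 at 35.2-fold over the whole bin and a within-bin correlation of the marks over 10 sub-bins of -0.30. Among the 10 bins with the highest smaller fold, 3 shared a summit, 2 had summits 500 bp apart and the others had them 1000 or 2000 bp apart.

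Inside the bin, H3K4me3 was a narrow peak and H3K27me3 a broader rise over the same place. The highest sub-bin of a member held a median of 43.1% of its H3K4me3 reads but 24.7% of its H3K27me3 reads, and the 3 highest sub-bins held 84.7% and 58.2%. A median of 2 sub-bins stood at or above 50% of the summit height for H3K4me3 and 3 for H3K27me3. For comparison, H3K4me3 had 47.5% of its reads in the highest sub-bin in the 9386 autosomal bins strong for H3K4me3 only, and H3K27me3 had 19.4% in the 4827 bins strong for H3K27me3 only. Those bins had the named mark at 5-fold or more, the other under 2-fold and MEF H3K9me3 under 10-fold. H3K27me3 was thus more peaked in bivalent bins than in bins strong for it only, and its median level was also higher there, at 8.32-fold against 6.27-fold.

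The 2 marks mostly peaked at nearly the same place. The summits fell in the same 500 bp sub-bin in 550 members (38.5%), and within 500 bp of each other in 962 (67.4%, 95% Clopper-Pearson interval 64.9% to 69.8%). They were 2000 bp or more apart in 166 members (11.6%). The precision of a summit can be read from the strands of 1 library: plus-strand and minus-strand reads placed it within 500 bp of each other in 95.7% of members for H3K4me3 and 81.1% for H3K27me3, each from only part of the reads. Summits of the 2 marks were thus apart more often than those of the strands of either library. Summits at a bin's first or last sub-bin, where the true peak can lie outside the bin, numbered 234 for H3K4me3 and 226 for H3K27me3.

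**Figure D1:**
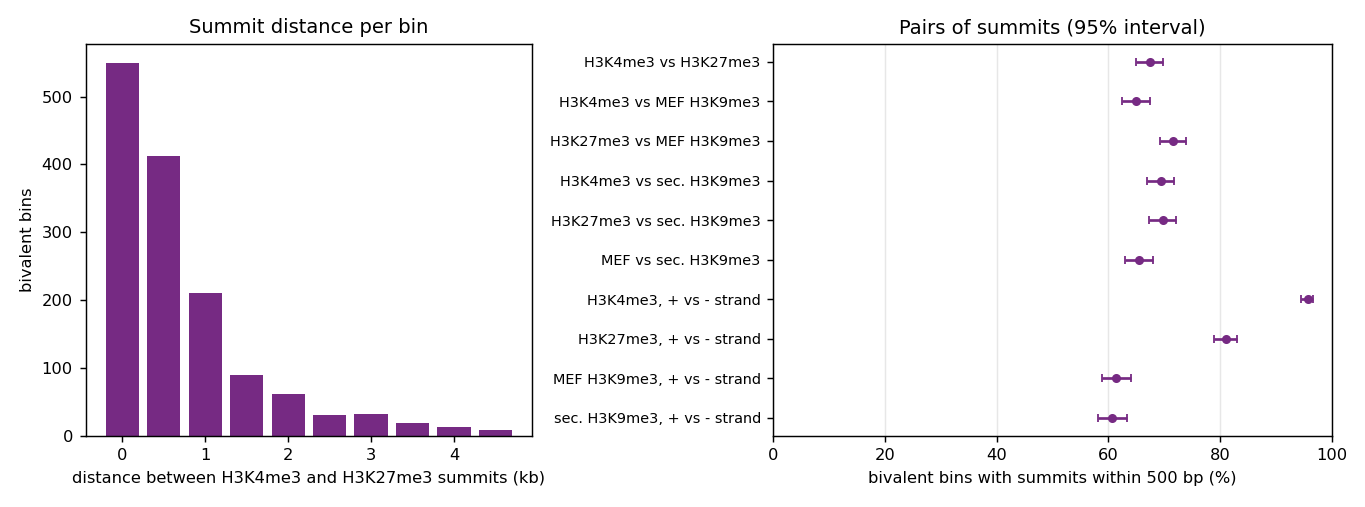
Left, number of bivalent bins by the distance between the 500 bp sub-bins with the most H3K4me3 and the most H3K27me3 reads; right, percent of the 1428 bins whose summits lie within 500 bp, for pairs of libraries and for the plus and minus strand of each library, with 95% Clopper-Pearson intervals (sec., secondary MEF). The left panel falls from 550 bins at distance 0, and in the right panel the strands of H3K4me3 (95.7%) and of H3K27me3 (81.1%) lie above every pair of libraries.

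Distance varied with H3K4me3 and hardly with H3K27me3. Summits lay within 500 bp in 76.6% of the 465 members with H3K4me3 from 5-fold to 7-fold (72.4% to 80.3%), in 73.1% of the 364 members from 7-fold to 10-fold (68.2% to 77.6%) and in 56.8% of the 599 members at 10-fold or more (52.7% to 60.8%). By H3K27me3 level the same shares were 67.1%, 69.4% and 65.9%, with overlapping intervals. Higher H3K4me3 thus went with summits farther apart. Members with a bivalent bin beside them had close summits in 57.2% (50.3% to 63.9%), and members without one in 69.2% (66.5% to 71.8%).

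At the place where H3K4me3 peaked, H3K27me3 was present in nearly all bins. H3K27me3 in that sub-bin had a median of 16.2-fold, against 22.3-fold at its own summit, and the median member kept 84.4% of its H3K27me3 summit height there. It reached 5-fold in 1325 members (92.8%) and was under 2-fold in 11. In the other direction, H3K4me3 at the H3K27me3 summit had a median of 23.8-fold, against 40.01-fold at its own, and was under 2-fold in 51 members. Sub-bins with both marks at 5-fold or more were found in all but 10 members, with a median of 3 of the 10 sub-bins. Of the 5579 sub-bins at 5-fold for H3K4me3, 85.9% were also at 5-fold for H3K27me3, while of the 9054 at 5-fold for H3K27me3, 52.9% were at 5-fold for H3K4me3. The H3K4me3 part lay largely inside the H3K27me3 part at this resolution, but the rule asked for 5-fold of both marks over the whole bin. A median of 6 of the 10 sub-bins was at 5-fold for H3K27me3 and 4 for H3K4me3. Part of the overlap is thus set by the choice of bins and the broader mark, and the rest was not tested. A sub-bin at the library mean holds 2.47 H3K4me3 and 1.98 H3K27me3 reads, so 5-fold is a low count, and shared sub-bins do not show whether the marks share nucleosomes, alleles or cells.

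The correlation of the marks over the 10 sub-bins of a member had a median of 0.67, with the middle 50% of members between 0.43 and 0.84, and it was negative in 94 members (6.58%). These values are descriptions, since the sub-bins of a bin are neighbours from the same libraries and the marks share mappability. H3K27me3 was lower at the H3K4me3 summit than at both sides, taken 1000 to 1500 bp away, in 91 members (6.37%), and higher than at both sides in 998 (69.9%). A dip of H3K27me3 under the H3K4me3 peak was thus the less common layout at this resolution. Dips narrower than 500 bp are not resolved. No input library was used to take off a rise shared by all libraries at that peak. H3K27me3 on the sides was often unequal: the 2 sides differed by 2-fold or more in 691 members (48.4%), from few reads each.

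Averaged around the H3K4me3 summit, H3K27me3 outlasted H3K4me3 on both sides. Mean H3K4me3 was 47.7-fold over a sub-bin's mean at the summit, 8.53-fold at 1000 bp and 2.29-fold at 3000 bp, or 4.81% of the summit. Mean H3K27me3 was 18.5-fold at the summit, 10.46-fold at 1000 bp and 5.28-fold at 3000 bp, or 28.6% of the summit, and it was still 3.28-fold at 10000 bp. In bins strong for H3K4me3 only, H3K27me3 was 2.67-fold at the H3K4me3 summit and 1.06-fold at 3000 bp. The H3K4me3 summit itself was lower in bivalent bins, at 47.7-fold, than in those bins, at 81.3-fold. In bins strong for H3K27me3 only, H3K27me3 around its own summit was flatter, at 14.8-fold at the summit, 6.19-fold at 3000 bp and 5.07-fold at 10000 bp. Around its own summit in bivalent bins it was 24.8-fold, 5.22-fold and 3.33-fold at these places. Averages centred on a library's own summit contain the chance excess that made the sub-bin the highest. All libraries had a sharp rise at the H3K4me3 summit, also where the mark was not strong: in bins strong for H3K4me3 only, secondary MEF H3K9me3 was 5.05-fold and MEF H3K9me3 3.12-fold there. No input library was used, and the part of such a shared rise in the bivalent signal was not tested. H3K27me3 at the summit was 18.5-fold in bivalent bins and 2.67-fold in bins strong for H3K4me3 only.

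**Figure D2:**
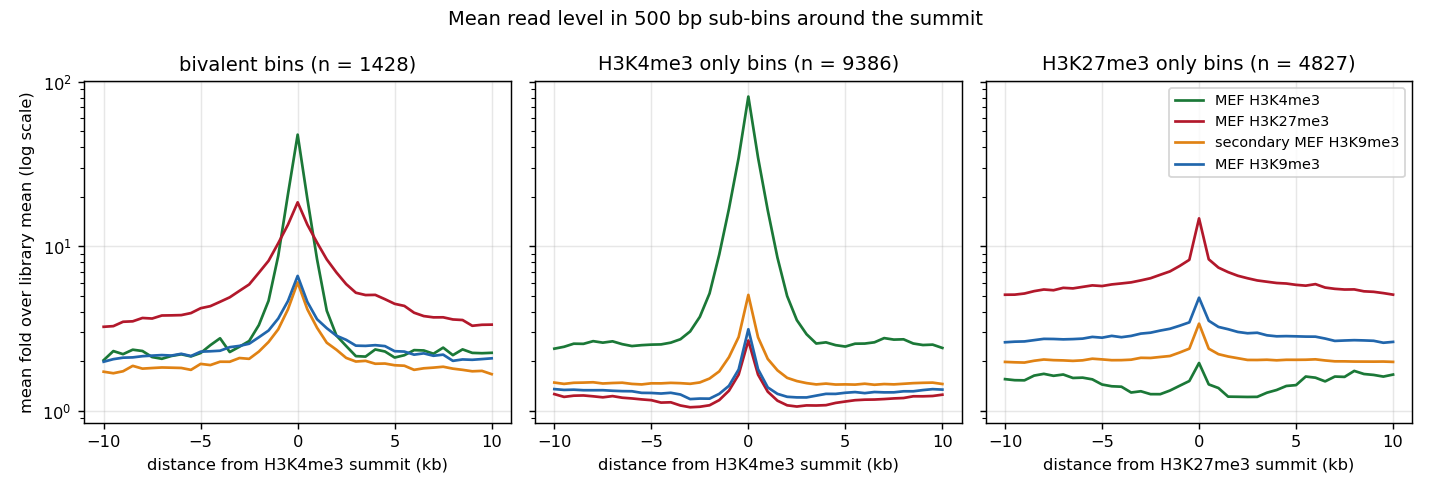
Mean reads in 500 bp sub-bins, as fold over the library mean on a log scale, by distance in kb from the H3K4me3 summit, for 1428 bivalent bins and 9386 bins strong for H3K4me3 only, and from the H3K27me3 summit for 4827 bins strong for H3K27me3 only; each line is 1 library. In bivalent bins H3K4me3 is below H3K27me3 from 1000 bp of the H3K4me3 summit outward, while H3K27me3 is at 3.28-fold at 10 kb.

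The balance of the marks was centred close to equal folds. The log2 ratio of the H3K4me3 fold to the H3K27me3 fold had a median of 0.08 and an SD of 1.02 over the 1428 bins. The marks were within 2-fold of each other in 948 bins (66.4%, 63.9% to 68.8%). H3K4me3 was at least 2-fold above H3K27me3 in 285 bins (19.96%, 17.9% to 22.1%) and H3K27me3 at least 2-fold above H3K4me3 in 195 (13.7%, 11.9% to 15.5%). The second share was 7.12% with both marks at 7-fold or more, and 0.391% with both marks also 2-fold above MEF H3K9me3 in the bin. MEF H3K9me3 went with H3K27me3 over the members, so that last setting removes many bins of this kind by construction. The tail was longer towards H3K4me3, with 53 bins at 4-fold or more against 14 in the other direction. A fold of 1 library is not on the same scale of enrichment as a fold of another, so equal folds do not mean equal amounts of the marks, and the rule cuts off bins where either mark is weak.

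**Figure D3:**
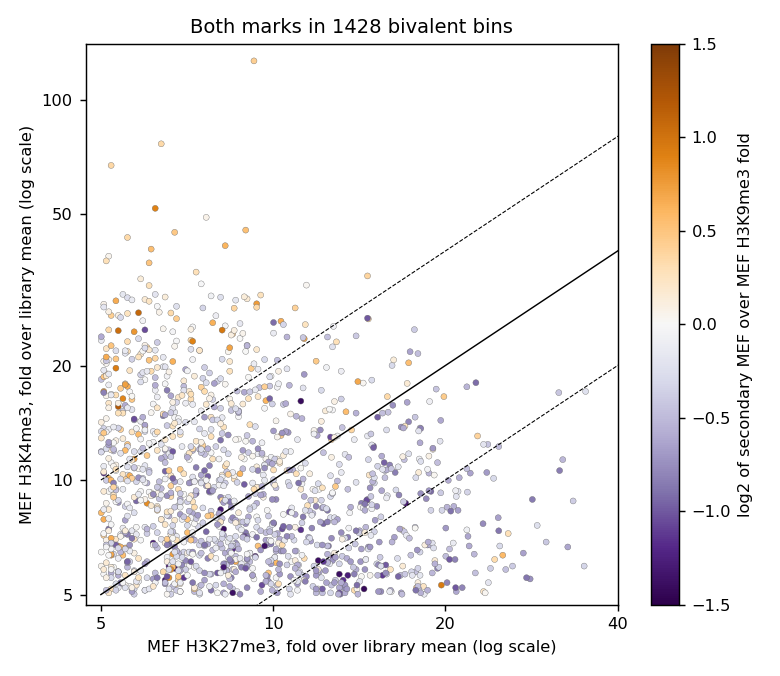
Each point is 1 of 1428 bivalent bins, by its MEF H3K27me3 fold (x axis) and MEF H3K4me3 fold (y axis), both on log scales, coloured by the log2 ratio of the secondary MEF to the MEF H3K9me3 fold (orange, higher in secondary MEF). The solid line marks equal folds and the dashed lines a 2-fold difference: 285 bins lie on or above the upper and 195 on or below the lower, and purple gathers towards high H3K27me3.

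The bins leaning most to H3K4me3 included stacks of repeated reads. The highest ratio was on chromosome 19 from 61250001 to 61255000, with 126-fold H3K4me3, 9.26-fold H3K27me3, 10.7-fold secondary MEF H3K9me3 and 7.94-fold MEF H3K9me3. Only 7.83% of its H3K4me3 reads were at distinct positions, and with 1 read per position its H3K4me3 was 10.8-fold and its H3K27me3 5.56-fold. Chromosome 1 from 196940001 to 196945000, at 76.5-fold H3K4me3 with 12.2% of reads at distinct positions, had 3.99-fold H3K27me3 with 1 read per position and then left the set. Chromosome 1 from 90105001 to 90110000, at 67.1-fold and 59.7% distinct, kept 43.8-fold H3K4me3 and 5.18-fold H3K27me3. No other member had under 70% distinct H3K4me3 positions, and the median member had 92.2%. In the next 2 bins, at 83.7% and 79.3% distinct H3K4me3 positions, the marks peaked apart. Chromosome 1 from 36500001 to 36505000 had 51.8-fold H3K4me3 and 6.22-fold H3K27me3 with summits 1000 bp apart, and chromosome 19 from 5085001 to 5090000 had 43.4-fold and 5.56-fold with summits 3500 bp apart. At that last H3K4me3 summit H3K27me3 was 2.53-fold, against 23.3-fold at its own.

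The bins leaning most to H3K27me3 had a small H3K4me3 peak set in high H3K27me3. Chromosome 9 from 57995001 to 58000000 had 5.94-fold H3K4me3 (5.02 to 6.98), 35.0-fold H3K27me3 (32.4 to 37.7), 6.51-fold secondary MEF H3K9me3 and 8.11-fold MEF H3K9me3. Both summits lay in the sub-bin from 57996001, at 22.6-fold H3K4me3 and 57.7-fold H3K27me3. A shared summit was also found on chromosome 1 from 74880001 to 74885000, with 5.496-fold H3K4me3 and 28.1-fold H3K27me3, and on chromosome 2 from 38175001 to 38180000, with 5.05-fold H3K4me3 and 23.5-fold H3K27me3. On chromosome 5 from 120695001 to 120700000 (5.54-fold and 27.7-fold) the summits were 500 bp apart, and on chromosome 15 from 98615001 to 98620000 (6.67-fold and 32.7-fold) 1000 bp apart. All 5 lay in longer stretches of H3K27me3 at 2-fold or more, between 25 kb and 140 kb, while H3K4me3 at 2-fold or more reached 10 kb at most.

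The members were ranked by balance into 3 parts of 476 bins. Summits were within 500 bp in 59.0% of the bins leaning to H3K4me3, 72.9% of the middle bins and 70.2% of those leaning to H3K27me3. The stretch of H3K27me3 at 2-fold or more around the bin had a median of 20 kb, 25 kb and 40 kb in these parts, and it was 50 kb or more in 19.7%, 24.2% and 42.6% of bins. A bivalent neighbour was present in 13.4%, 12.6% and 19.1%. These measures come from the libraries that set the balance, so they describe the parts and test nothing.

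Bivalent bins were mostly single bins, set as H3K4me3 islands in wider H3K27me3. They formed 1301 runs of adjacent bins, of which 1213 were 1 bin long, 75 were 2 bins long and 13 were longer. Of the members 215 (15.1%, 13.2% to 17.0%) had a bivalent bin beside them, a share that was 8.61% with both marks at 7-fold or more and 8.47% with both also 2-fold above MEF H3K9me3. In bins strong for H3K4me3 only this share was 32.7% of 9386, and in bins strong for H3K27me3 only 56.3% of 4827. Those lists are larger, which alone makes neighbours likelier, and this was not adjusted for. The bins right beside a member had a median of 0.970-fold H3K4me3 and 3.24-fold H3K27me3, and 27.7% of them reached 2-fold H3K4me3 while 73.6% reached 2-fold H3K27me3. At 50 kb the medians were 0.647-fold and 1.52-fold. The stretch of H3K4me3 at 2-fold or more that held a member was a single bin for 792 members (55.5%), whereas that of H3K27me3 was a single bin for 154 (10.8%) and 50 kb or longer for 412 (28.9%). For bins strong for H3K27me3 only, the share at 50 kb or longer was 66.6%.

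The distance to the nearest other member had a median of 245 kb, and 34.0% of members had another within 100 kb. Windows of 1 Mb with a member numbered 835, and 520 of them held a single one. Only 31 windows held 5 or more, with 224 members (15.7%) between them. Density was highest on chromosome 11, with 139 members or 5.91 per 1000 bins, then chromosome 15 (4.37), chromosome 19 (4.09) and chromosome 2 (3.91), and lowest on chromosome 3 (1.69) and chromosome 16 (1.82). On chromosome 11 bins strong for H3K4me3 only and for H3K27me3 only were also dense, at 32.1 and 21.0 per 1000 bins, and on chromosome 3 they were at 16.6 and 3.68.

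Members were densest in 5 windows, on chromosomes 11, 15, 6, 2 and 8, and the 4 longest runs were in the first 4 of these. The 1 Mb window on chromosome 11 from 96000001 held 16 members, those on chromosome 15 from 102000001 and on chromosome 6 from 52000001 held 14 each, and those on chromosome 2 from 74000001 and on chromosome 8 from 73000001 held 10 each. The 4 longest runs covered 60 kb of chromosome 6 (12 bins, 52135001 to 52195000), 45 kb of chromosome 2 (9 bins, 74455001 to 74500000), 45 kb of chromosome 11 (9 bins, 96095001 to 96140000) and 30 kb of chromosome 15 (6 bins, 102790001 to 102820000). As background, the mouse Hox genes, homeobox transcription factors that set position along the body axis and are classic Polycomb targets, form 4 clusters, on chromosomes 6, 11, 15 and 2 in the RefSeq gene table. Which genes these mm8 bins hold was not determined here. Next in length were 2 runs of 4 bins, on chromosome 11 from 85645001 to 85665000 and on chromosome 15 from 102825001 to 102845000, the second of them 1 bin after the longer chromosome 15 run.

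The long runs differed in balance. Along chromosome 6 H3K4me3 averaged 15.1-fold and ranged from 5.82-fold to 30.3-fold, H3K27me3 averaged 10.6-fold and ranged from 6.63-fold to 15.8-fold, and H3K4me3 was the higher in 7 of 12 bins. In the runs on chromosome 2, chromosome 11 and chromosome 15 H3K4me3 averaged 8.77-fold, 8.82-fold and 8.16-fold and H3K27me3 11.3-fold, 12.2-fold and 11.4-fold. H3K4me3 was the higher in 1 of 9, 2 of 9 and 1 of 6 bins there. The chromosome 6 run was therefore the one of these 4 in which H3K4me3 led on average. In all 4 the H3K27me3 stretch at 2-fold or more was longer than the run, at 185 kb, 130 kb, 135 kb and 185 kb. The 64 members of the 5 windows with 10 or more had a median of 5 sub-bins with both marks at 5-fold, against 3 in the other 1364 members, and medians of 8.79-fold H3K4me3 and 10.35-fold H3K27me3, against 9.01-fold and 8.25-fold.

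**Figure D4:**
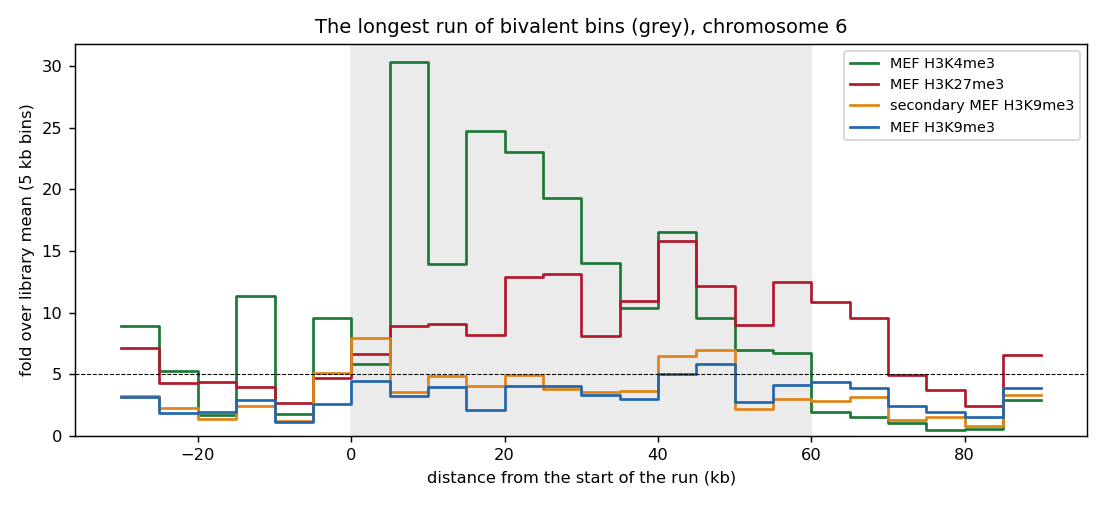
Fold over the library mean in 5 kb bins along the longest run of bivalent bins (grey, 60 kb on chromosome 6) and 30 kb on each side, for the 4 libraries; the dashed line is the 5-fold limit. H3K4me3 is highest in the second bin, at 30.3-fold, and falls below 2-fold right after the run, where H3K27me3 is still at 10.9-fold.

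H3K9me3 reads stood at 2-fold or more over the library mean in most bivalent bins, in both kinds of fibroblast. No input library was used, and the part of a rise shared by all libraries in these levels was not tested. Secondary MEF H3K9me3, which the choice of bins did not use, had a median of 2.91-fold, with the middle 50% of bins between 2.35-fold and 3.59-fold and a range from 1.05-fold to 12.8-fold. MEF H3K9me3 had a median of 3.44-fold, with the middle 50% between 2.83-fold and 4.22-fold and a range from 1.22-fold to 9.72-fold. At 2-fold or more were 1254 members (87.8%, 86.0% to 89.5%) in secondary MEF, where 10.9% of all autosomal bins were, and 1383 members (96.8%, 95.8% to 97.7%) in MEF, where again 10.9% of all autosomal bins were. In bins strong for H3K4me3 only, the shares were 49.0% in secondary MEF and 15.1% in MEF, and in bins strong for H3K27me3 only 54.4% and 95.5%. In secondary MEF the bivalent share was above that of both kinds with 1 strong mark. In MEF it was close to that of bins strong for H3K27me3 only at this limit, but not at a higher one: 12.5% of bivalent bins (10.8% to 14.3%) and 2.40% of bins strong for H3K27me3 only (1.99% to 2.88%) had MEF H3K9me3 at 5-fold or more, and their medians were 3.44-fold and 3.05-fold. The kinds with 1 strong mark left out bins with the other at 2-fold to 5-fold. With H3K4me3 at 5-fold or more, the secondary MEF median was 2.79-fold where H3K27me3 was 2-fold to 3-fold. It was 2.603-fold from 3-fold to 5-fold, 2.66-fold from 5-fold to 10-fold and 3.41-fold above. With H3K27me3 at 5-fold or more and H3K4me3 from 3-fold to 5-fold, the MEF median was 3.55-fold and the secondary MEF median 2.603-fold. Such levels were thus not limited to bivalent bins. Each share is from 1 library, and the other marks of secondary MEF were not analysed here.

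Inside the bins, H3K9me3 reads mostly peaked near the summits of the other marks. The H3K9me3 summit was within 500 bp of the H3K4me3 summit in 69.4% of members in secondary MEF and 65.0% in MEF, and within 500 bp of the H3K27me3 summit in 69.7% and 71.6%. With so few reads the strands of an H3K9me3 library placed its own summit within 500 bp in only 60.7% of members in secondary MEF and 61.4% in MEF, so finer differences are not resolved. At the H3K4me3 summit the secondary MEF mean was 6.02-fold and the MEF mean 6.59-fold, and at 3000 bp they were 2.04-fold and 2.48-fold. In bins strong for H3K4me3 only, the means at that summit were 5.05-fold for secondary MEF and 3.12-fold for MEF. The within-bin correlation of MEF H3K9me3 with H3K27me3 had a median of 0.76. Without an input library, the part of a rise shared by all libraries in these positions and this correlation was not tested.

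Over the members, H3K9me3 in MEF went with H3K27me3, and H3K9me3 in secondary MEF went with both marks as measured in MEF. The log2 fold of H3K27me3 had a Pearson correlation of 0.42 with that of secondary MEF H3K9me3 and of 0.74 with that of MEF H3K9me3 (n = 1428 bins each). The log2 fold of H3K4me3 had correlations of 0.23 and -0.07. The points share the libraries, the flow cell of the 3 MEF libraries, mappability and base composition, so these are descriptions. The 2 H3K9me3 libraries had a correlation of 0.59.

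The share of H3K9me3 reads in bivalent bins was lower in secondary MEF than in MEF. They held 72051 secondary MEF reads and 93995 MEF reads, a ratio of read shares of 0.855 (95% interval 0.847 to 0.864), and the fold was higher in secondary MEF in 410 of 1428 bins (28.7%). The ratio was 1.42 in bins strong for H3K4me3 only, 0.685 in bins strong for H3K27me3 only and 1.01 over all autosomal bins. Bivalent bins thus stood between the kinds of bin with 1 strong mark. By chromosome, the ratio over members was under 1 on all 18 autosomes other than chromosome 12, from 0.751 on chromosome 4 to 0.940 on chromosome 17, and it was 1.15 on chromosome 12. Chromosome 12 as a whole had a ratio of 1.46, so its 58 bivalent bins were also below their chromosome. Without it the ratio over bivalent bins was 0.843. The cell source and the flow cell differed together between these libraries and cannot be told apart.

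The ratio differed with the balance of the marks. It was 0.984 (0.967 to 1.001) in the 476 bins leaning to H3K4me3, 0.860 (0.845 to 0.875) in the middle bins and 0.762 (0.750 to 0.774) in those leaning to H3K27me3, and without chromosome 12 it was 0.974, 0.847 and 0.748. Secondary MEF was the higher in 45.0%, 28.2% and 13.0% of the bins of these parts. The secondary MEF medians were 2.97-fold, 2.66-fold and 3.22-fold and the MEF medians 3.11-fold, 3.25-fold and 4.28-fold, so that the parts differed more in MEF. Among bins with H3K4me3 at 5-fold or more, the ratio was 1.45 where H3K27me3 was under 1-fold, 1.34 from 2-fold to 3-fold, 0.910 (0.899 to 0.922) from 5-fold to 10-fold and 0.787 (0.775 to 0.798) at 10-fold or more. Among bins with H3K27me3 at 5-fold or more, it was 0.671 where H3K4me3 was under 1-fold, 0.743 from 2-fold to 3-fold, 0.802 (0.792 to 0.813) from 5-fold to 10-fold and 0.932 (0.919 to 0.946) at 10-fold or more. Just under the limits, from 3-fold to 5-fold of the other mark, the ratio was 1.14 on the H3K4me3 side and 0.756 on the H3K27me3 side. These parts and classes were set by MEF libraries that share their cells and flow cell with the MEF H3K9me3 library in the ratio. The values therefore describe the bins and test nothing, and the intervals cover counting error only.

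**Figure D5:**
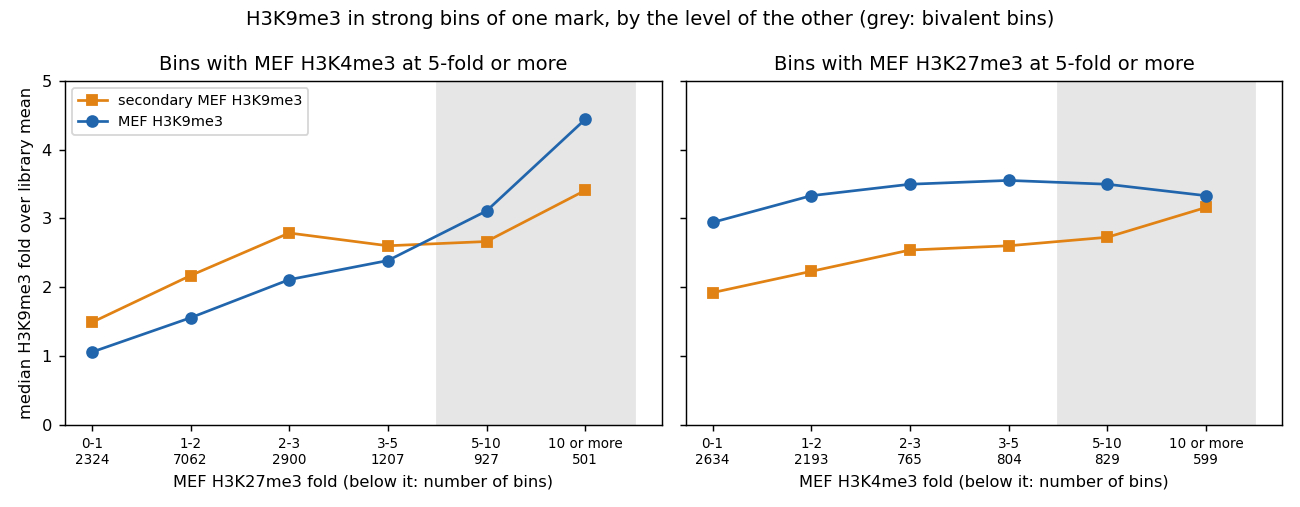
Median H3K9me3 fold in secondary MEF (squares) and MEF (circles) in autosomal bins with H3K4me3 (left) or H3K27me3 (right) at 5-fold or more and MEF H3K9me3 under 10-fold, by the fold of the other mark, with the number of bins below each class; grey marks the bivalent bins. On the left secondary MEF is above MEF up to 5-fold H3K27me3 and below it in the grey area, and on the right MEF is above secondary MEF throughout, with the medians closest, at 3.16-fold and 3.33-fold, where H3K4me3 is 10-fold or more.

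Few single bivalent bins differed between the H3K9me3 libraries. To be called different, a bin needed a 2-fold ratio and an exact interval, at an error rate of 0.001, that left out 1, among bins with at least 20 reads in both libraries together. Of the 1428 members 2 were higher in secondary MEF (0.140%, where 0.764% of all 317266 compared bins were) and 34 were lower (2.38%, where 0.551% were). Members had a median of 111 H3K9me3 reads in both libraries together and all compared bins 42, and more reads make a call easier. In bins strong for H3K27me3 only, with a median of 89 reads, 9.09% were lower and 0 of 4827 higher, and in bins strong for H3K4me3 only, with a median of 58 reads, 4.77% were higher and 0 of 9325 compared lower. The lower members were 5 of the part leaning to H3K4me3, 9 of the middle part and 20 of the part leaning to H3K27me3.

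The 2 higher members leaned to H3K4me3. On chromosome 12 from 73970001 to 73975000 secondary MEF had 90 reads and MEF 44, a ratio of 2.28 (interval at that error rate 1.246 to 4.36), beside 15.6-fold H3K4me3 and 5.36-fold H3K27me3. Chromosome 12 had a raised ratio as a whole, of 1.46 over all its bins and 2.06 over its bins strong for H3K4me3 only. On chromosome 8 from 109025001 to 109030000 there were 108 and 57 reads, a ratio of 2.11 (1.23 to 3.74), with 27.5-fold and 5.82-fold. The next by ratio, on chromosome 2 from 165845001 to 165850000, had 57 and 31 reads, and its interval, 0.980 to 4.54, held 1. All 3 had their summits of H3K4me3 and H3K27me3 between 1500 and 2500 bp apart.

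The lowest ratios were at bins that leaned to H3K27me3. Chromosome 16 from 35070001 to 35075000 had 27 secondary MEF reads and 81 MEF reads, a ratio of 0.372 (0.166 to 0.763), with 5.17-fold H3K4me3 and 14.4-fold H3K27me3. On chromosome 4, the bins from 138345001 to 138350000 and from 105960001 to 105965000 each had 26 and 76 reads, a ratio of 0.382 (0.167 to 0.796). Their H3K4me3 was 5.66-fold and 6.14-fold and their H3K27me3 13.1-fold and 11.99-fold, and in both the 2 marks shared a summit.

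The highest secondary MEF H3K9me3 among members was on chromosome 8 from 72810001 to 72815000, at 12.8-fold (11.1 to 14.7), with 8.55-fold in MEF, 6.35-fold H3K4me3 and 25.2-fold H3K27me3. Chromosome 12 from 8325001 to 8330000 followed at 11.9-fold (10.3 to 13.7), with 6.16-fold in MEF, 5.29-fold H3K4me3 and 19.7-fold H3K27me3. Next was the bin with stacked reads of chromosome 19 from 61250001, at 10.7-fold, which with 1 read per position had 5.70-fold H3K9me3 for secondary MEF and 4.71-fold for MEF. The first 2 were therefore strong H3K27me3 bins near the lower limit of H3K4me3. Of the 4 longest runs, the one on chromosome 6 had a ratio of secondary MEF to MEF of 1.20 (95% interval 1.09 to 1.32), and those on chromosome 2, chromosome 11 and chromosome 15 had 0.915 (0.814 to 1.03), 0.814 (0.717 to 0.924) and 0.7998 (0.680 to 0.940). In the runs of 4 bins the ratio was 0.930 (0.759 to 1.14) on chromosome 15 from 102825001, where H3K4me3 averaged 11.2-fold and H3K27me3 7.94-fold, and 1.03 (0.875 to 1.22) on chromosome 11 from 85645001, where they averaged 9.44-fold and 11.1-fold. Both intervals held 1.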

How the data were processed

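Histone marks were mapped by chromatin immunoprecipitation with sequencing in 4 libraries, 1 a group. Per the labels, chromatin averaged 500 bp, libraries had 18 PCR cycles, and gel selection kept 150 to 350 bp. The deposited values are other than levels: signed genome positions of reads, not normalised. Reads were aligned by the authors to mm8, per the file headers, with Bowtie (-e 70, -k 2, -m 2, -n 2, -l 36, --best). The version is not given in the sources used here, and nothing states whether repeated reads were removed.

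Reads with 1 location were read as 0-based leftmost positions of 36 bases and moved 75 bp from the 5' end, then counted in 5 kb bins and 500 bp sub-bins with Python 3.11.15, numpy 2.4.6, pandas 2.3.3 and scipy 1.17.1. Other sequences than chromosomes 1 to 19, X and Y were left out. A summit is the sub-bin with the most reads. Intervals are Clopper-Pearson or Poisson. Ratios use total reads on chromosomes 1 to 19, X and Y. Rules were tried on simulated counts with simple peaks and counting noise, which lack the shared rises and repeated reads of the real libraries. The members and lists were chosen with earlier results of these data known. Named bins are the extremes by smaller fold (10), balance (5 each way), run length (5), windows (5), H3K9me3 (3 each) and nearness to the limit (5 each way). The repeated-read bins, sides of the summit and the windows with 10 or more members were singled out after seeing the data. Alternatives covered grid, repeated reads, reads with 2 locations, shift, thresholds, background, depth, library mean and sub-bin width.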

Additional observations from a re-analysis of the deposited data

Results flagged for a closer look

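Chromosome X held 10 bins that meet the limits set for autosomes, and chromosome Y held 0. These bins lie outside the autosomes used above. Their medians were 6.47-fold H3K4me3 and 6.53-fold H3K27me3, and their median H3K9me3 was 1.64-fold for secondary MEF and 2.83-fold for MEF. Reads with 2 locations, which no comparison used, had 13158 places in the bivalent bins over all 4 libraries. The bins on chromosome 1 from 196940001 and chromosome 19 from 61250001 held 3776 and 3735 of them, and 671 members held none. Per 100 reads with 1 location, members had 2.22 such places for H3K4me3, 0.794 for H3K27me3, 1.35 for secondary MEF H3K9me3 and 1.28 for MEF H3K9me3, where all autosomal bins had 4.49, 5.31, 6.80 and 6.61.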

How the results depend on the processing

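Of 92 values of 8 results under alternatives, 71 stayed close to the reported value and 21 moved. Close meant a count within 1.5 times, or a share or ratio inside its 95% interval. A reversal was defined only for the ratio of H3K9me3 read shares, as crossing 1. Its 12 alternatives ranged from 0.839 to 0.912, and 0 reversed. With both marks at 7-fold or more, 604 bins were left, of which 8.61% had a bivalent neighbour, 62.9% had summits within 500 bp, 13.9% had H3K4me3 and 7.12% H3K27me3 at least 2-fold above the other, 94.2% had secondary MEF and 99.3% MEF H3K9me3 of 2-fold or more, and the ratio of secondary MEF to MEF H3K9me3 was 0.839. With both marks also 2-fold above MEF H3K9me3 in the bin, 767 bins were left, of which 8.47% had a neighbour, 0.391% had H3K27me3 at least 2-fold above H3K4me3, 83.6% had secondary MEF and 94.1% MEF H3K9me3 of 2-fold or more, and the ratio was 0.912. This setting removes bins by MEF H3K9me3, so it lowers that level by construction. MEF H3K9me3 went with H3K27me3, so the setting also removes bins where H3K27me3 is well above H3K4me3. Close summits made up 60.8% with sub-bins of 250 bp and 85.2% with sub-bins of 1 kb, where the next sub-bin counted as close. In settings added after seeing the data, 12.6% had a neighbour without the windows on chromosomes 11, 15, 6 and 2 that held the 4 longest runs, and 12.2% without all 5 windows of 10 or more members. The ratio was 0.843 with bins starting 2.5 kb later, 0.889 with no limit on MEF H3K9me3 and 0.843 without chromosome 12, also added after seeing the data. With 1 read per position 1392 of the members (97.5%) were chosen again, and with bins starting 2.5 kb later 1154 (80.8%) overlapped a bivalent bin, so the choice of grid decides part of the list. No paired analysis was possible because each group has 1 library. The number of reads limits the summits of H3K9me3 and the calls of single bins.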
